A study of Mus musculus with 4 samples.

Results

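The genes described are 5 secretory or digestive genes of the stomach gland, chosen by name: Pgc (pepsinogen C), Pga5 (pepsinogen A5), Cblif (gastric intrinsic factor), Chia1 (acidic chitinase) and Ctse (cathepsin E). All 5 were found among the 55335 rows of the deposited table, and all 5 were among the 13019 genes tested, those whose mean over the libraries reached 1 CPM (a read count divided by the library's gene reads and scaled to 1000000). Levels came from SMART-Seq2, which copies whole transcripts to cDNA and amplifies them, and were compared between 2 sorted fractions of corpus epithelium from C57BL/6 mice aged 6 to 8 weeks. All mice carried the Iqgap3-2A-tdTomato reporter allele, which couples the red fluorescent protein tdTomato to expression of Iqgap3, and all cells were living and positive for the epithelial surface protein EpCAM. IQ3pos cells were those high for the reporter and IQ3neg cells those low or negative for it, and the labels name no drug or injury for either group. Each fraction had 2 libraries of pooled animals, with IQ3pos_1909A and IQ3neg_1909B from 3 mice each and IQ3pos_1910A and IQ3neg_1910B from 4 mice each, so a library averages over mice and over every cell type that the gate let through. The labels do not say that libraries with the same number came from the same mice, and p-values measure only the spread between these pooled samples.

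Pepsinogens are inactive precursors of pepsin, the aspartic protease of gastric juice, and are stored in granules by chief cells at the base of the corpus gland. In mice the same cells also make intrinsic factor, the carrier that lets the gut take up cobalamin (vitamin B12), and an acidic chitinase that stays active at gastric pH. Cathepsin E belongs to the aspartic protease family too, but it is kept inside cells and is known mainly from surface mucous cells of the stomach and from immune cells. Chief cell products are therefore read here beside a relative of pepsinogen that another cell type makes.

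The 3 aspartic protease genes share the catalytic motif of the family, shown here because these related genes did not follow the same course between the fractions. Each line gives 39 bases of coding sequence around the first match to GANACNGGN, the codons of the Asp-Thr-Gly motif, which is in capitals. Counted from the first base of the start codon, the motif begins at base 280 in Pgc, 274 in Pga5 and 289 in Ctse.
Pgc: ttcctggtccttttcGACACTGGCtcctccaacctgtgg
Pga5: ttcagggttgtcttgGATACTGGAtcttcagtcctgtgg
Ctse: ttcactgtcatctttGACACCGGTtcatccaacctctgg
The sequences come from GENCODE vM21 transcripts. Coding sequences were 61.8% identical between Pgc and Pga5, 62.7% between Pgc and Ctse and 62.5% between Pga5 and Ctse, and the longest exact run that any pair shared was 16 bases. None of the 50-base windows of the 5 genes' transcripts (1387 to 3167 windows a gene) occurred in a transcript of another annotated gene on either strand, and no annotated gene overlaps any of the 5. Reads of 50 bases or more could thus be told apart between them.

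On GRCm38, Pgc lies on chromosome 17 at 47726842 to 47734482, Pga5 on chromosome 19 at 10668956 to 10678071 and Cblif, annotated there as Gif, on the same chromosome at 11747554 to 11763447. Chia1 lies on chromosome 3 at 106113229 to 106132120, and Ctse on chromosome 1 at 131638306 to 131675505. The RefSeq promoter table for GRCm38.p6 held 3 of the 5 genes, Pgc, Cblif and Chia1, which are also the 3 that stood lower in IQ3pos, so their upstream sequence was read. Shown are the 120 bases before the earliest start annotated by GENCODE or RefSeq. None is shown for Chia1, whose GENCODE start lies so far upstream of the RefSeq start that the table's window does not reach 120 bases before it. The coordinates are chr17:47726722-47726841 for Pgc and chr19:11747434-11747553 for Cblif, both on the plus strand, and capitals mark the TATA box motif, searched for as TATAAA, and the E-box motif CANNTG (the class of site that basic helix-loop-helix factors bind).
Pgc: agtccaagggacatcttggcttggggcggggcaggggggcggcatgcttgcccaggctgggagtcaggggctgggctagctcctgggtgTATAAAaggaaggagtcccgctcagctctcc
Cblif: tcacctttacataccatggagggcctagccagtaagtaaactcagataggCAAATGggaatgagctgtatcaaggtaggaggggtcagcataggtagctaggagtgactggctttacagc
Both strands of the table's 300-base windows (250 bases before the RefSeq start and 50 after) were searched for all 3 genes. TATAAA was matched in Pgc, Chia1 and 13.6% of 32851 windows, and CANNTG in Cblif, Chia1 and 72.3% of them. Of the particular forms of this E-box, CATATG was found in 3.91% of all windows. The form CAGCTG was found in 16.3% and the form CACGTG in 7.15% of them, and the 3 genes' windows held none of these forms. Neither motif was found in all 3 windows, and a match describes letters only.

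Libraries held from 90714929 to 418401262 reads in genes. Iqgap3, the gene behind the sort, stood at 0.220 CPM (20 reads) in IQ3pos_1909A against 0.0435 (5 reads) in IQ3neg_1909B. It stood at 9.32 CPM in IQ3pos_1910A against 0.452 in IQ3neg_1910B. Iqgap3 was thus higher in IQ3pos within each number, though on few reads in the 3-mouse libraries, and IQ3pos_1909A lay below IQ3neg_1910B. Its difference did not pass in limma on CPM (adjusted p = 0.493) or in edgeR (adjusted p = 0.361). The 20 genes of highest mean CPM took 63.4% and 57.9% of reads in IQ3neg_1909B and IQ3neg_1910B but 25.3% and 18.5% in IQ3pos_1909A and IQ3pos_1910A. CPM are shares of a library, so the log2 difference of the median tested gene, IQ3pos minus IQ3neg, was 0.68 (1.60-fold) on CPM. It was 0.04 once libraries were scaled with TMM, a factor for library composition. Differences are given on CPM and, where it matters, on TMM-scaled CPM. Epcam was present in all libraries, at 473 and 517 CPM in IQ3pos and 205 and 266 in IQ3neg. Markers of pancreatic acinar cells, which make many of the same enzymes, stood at unequal levels. Amy2a2 had 0 reads in all 4 libraries, Cpa1 stood at most at 0.0441 CPM and Pnlip at most at 0.954. Amy2b stood at 11.4 and 7.88 CPM in IQ3neg against 0.507 and 0.133 in IQ3pos. Cela2a stood at 14.9 and 10.7 CPM against 0.0220 and 0.00717, and Cel reached 581 and 663 CPM in IQ3neg. Of the 9 acinar markers, 4 were tested (Cela2a, Cel, Ctrb1 and Amy2b), and all 4 were lower in both IQ3pos libraries. Over the 9 acinar markers the summed level was 1.42 to 16.01 CPM in IQ3pos and 610 to 688 in IQ3neg, where nearly all of it was Cel. Other cell types moved with the fractions too: the summed level of 6 enteroendocrine markers was 360 and 175 CPM in IQ3pos against 16180 and 10180 in IQ3neg, with 6 of 6 lower in both IQ3pos libraries, and that of 4 markers of dividing cells was 826 and 1665 against 85.0 and 157, with 4 of 4 higher. The sum of 6 parietal cell markers was 7573 and 7221 CPM in IQ3pos against 806 and 1457 in IQ3neg. Of them, 4 of 6 were higher in both IQ3pos libraries, Cckbr was lower in both and Slc26a7 overlapped. These marker counts stand beside 14.2% of all tested genes lower and 40.9% higher in both IQ3pos libraries on CPM. Tff2, a marker of mucous neck cells, stood at 4236 and 5492 CPM in IQ3pos against 415 and 596 in IQ3neg. It passed on TMM-scaled CPM (limma adjusted p = 0.0313) as well as in edgeR (adjusted p = 0.0141). Muc6 and Gkn3, the other neck cell markers, overlapped on CPM. On TMM-scaled CPM, Muc6 stood lower in both IQ3pos libraries, at 302 and 302 against 383 and 650, and Gkn3 still overlapped. The part of these cell types in the results was not tested. Chief cell markers themselves summed to 61974 and 22080 CPM in IQ3pos and 518106 and 503988 in IQ3neg. Clps alone held 31717 and 7144 CPM of the IQ3pos sums and 340995 and 277067 of those in IQ3neg. The 10 markers include Pgc, Pga5, Cblif and Chia1, so the sum is not separate from the genes described. Of the 9 tested, 8 were lower in both IQ3pos libraries, beside the 14.2% of all tested genes, and Pga5 overlapped. The gastric lipase gene Lipf, not tested, stood at most at 0.0331 CPM.

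Each IQ3pos library held less Pgc, Cblif and Chia1 than either IQ3neg library. Ctse stood higher, and Pga5 overlapped. The 3 lower genes made up 1.91% and 1.23% of all reads in IQ3pos_1909A and IQ3pos_1910A, and 7.36% and 12.6% in IQ3neg_1909B and IQ3neg_1910B. Among all tested genes, 14.2% stood lower in both IQ3pos libraries and 40.9% higher; on TMM-scaled CPM these shares were 23% and 24.7%, and each of the 5 genes was on the same side as on CPM. In bulk RNA, fewer cells of a type and less RNA per cell cannot be told apart.

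Pgc, the precursor of pepsin C (gastricsin), was measured at 11807 CPM in IQ3pos_1909A and 9814 in IQ3pos_1910A, against 37522 in IQ3neg_1909B and 68224 in IQ3neg_1910B. The IQ3pos libraries lay close together and far below either IQ3neg library, yet Pgc still ranked as gene 5 and gene 3 by CPM within them, as it ranked 4 and 3 within IQ3neg. The log2 difference was −2.23 (SE 0.37, limma adjusted p = 0.0659), short of the threshold of 0.05. It was −3.00 on TMM-scaled CPM (SE 0.28, limma adjusted p = 0.0354) and −3.01 in edgeR's quasi-likelihood test on the recovered reads (adjusted p = 0.0127), and Pgc passed in both.

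Cblif was measured at 1733 CPM in IQ3pos_1909A and 787 in IQ3pos_1910A, against 8501 in IQ3neg_1909B and 14236 in IQ3neg_1910B. It was the gene of rank 9 and 6 in the IQ3neg libraries and of rank 51 and 141 in the IQ3pos libraries. The log2 difference was −3.23 (SE 0.46, limma adjusted p = 0.0639), and on TMM-scaled CPM −4.002 (SE 0.43, limma adjusted p = 0.0478). In edgeR it was −3.89 (adjusted p = 0.0204), so Cblif passed with either way of taking composition into account.

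Chia1, whose product cleaves the chitin of insects and fungi, was measured at 5587 CPM in IQ3pos_1909A and 1742 in IQ3pos_1910A, against 27568 in IQ3neg_1909B and 43820 in IQ3neg_1910B. The IQ3pos libraries differed more for it than for Pgc, and neither came near IQ3neg. Its log2 difference of −3.48 (SE 0.59, limma adjusted p = 0.0659) was the lowest of the 5, with 195 of the 13019 tested genes lower still. It passed in edgeR at −3.997 (adjusted p = 0.0331), but not on TMM-scaled CPM at −4.24 (SE 0.56, limma adjusted p = 0.0645). The value leaned on which IQ3pos library was used: it was −2.64 without IQ3pos_1910A and −4.32 without IQ3pos_1909A.

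**Figure D1:**
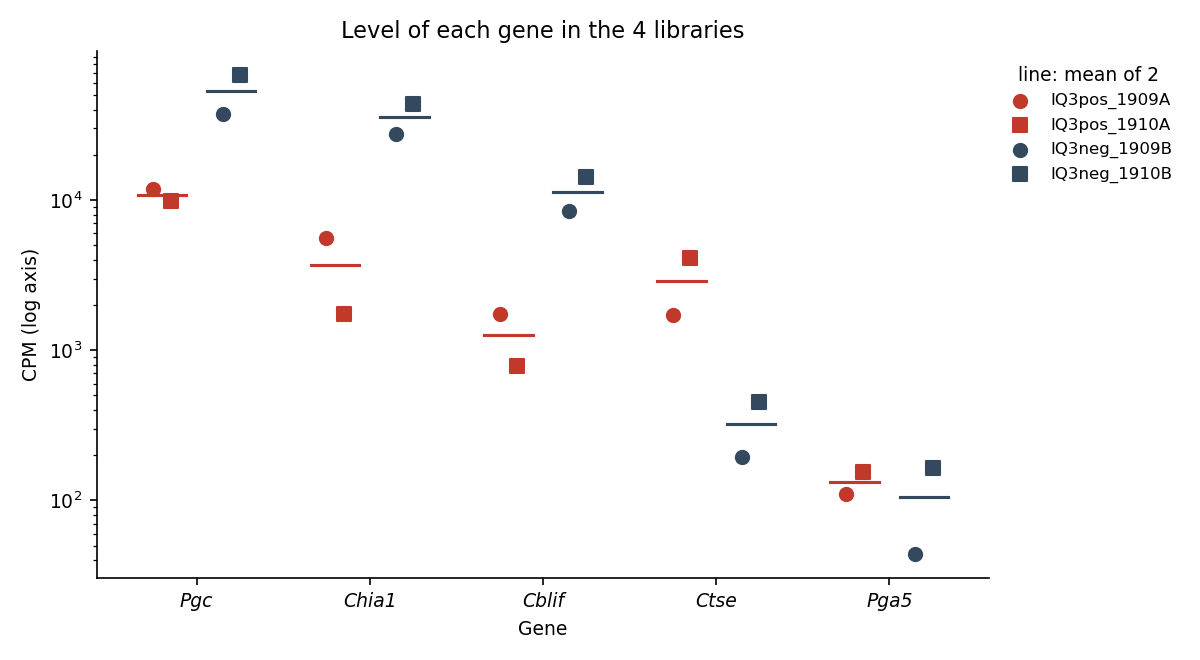
CPM (log axis) of the 5 genes in each library, red for IQ3pos and dark blue for IQ3neg, circles for the 3-mouse and squares for the 4-mouse libraries, with a line at the mean of the 2 libraries. Pgc, Chia1 and Cblif lie lower in both IQ3pos libraries, Ctse lies higher, and the Pga5 points of the fractions overlap between 44.0 and 165 CPM.

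Set against all genes, these calls were rare. Limma on CPM called 0 of 13019 genes lower and 0 higher, which is 0% in each direction, with 648 lower and 2373 higher at an unadjusted p under 0.05. On TMM-scaled CPM limma called 24 lower (0.184%) and 6 higher (0.0461%), and Pgc and Cblif were among the 24. EdgeR called 80 lower (0.614%) and 40 higher (0.307%), with Pgc, Cblif and Chia1 among the 80. Neither Pga5 nor Ctse passed in any of these 3 tests.

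Pga5, the other pepsinogen gene, was far less abundant than Pgc and did not follow it. It was measured at 110 CPM in IQ3pos_1909A and 154 in IQ3pos_1910A, against 44.0 in IQ3neg_1909B and 165 in IQ3neg_1910B. Both IQ3pos values lay between the IQ3neg values, and the IQ3neg libraries differed from each other more than the fractions did. The log2 difference was 0.60 (SE 0.66, limma adjusted p = 0.602), −0.16 on TMM-scaled CPM (SE 0.56, limma adjusted p = 0.908) and −0.34 without IQ3neg_1909B, so the sign depended on the scaling and on 1 library. Per kb of annotated exon, the scale on which genes can be compared, Pga5 stood at 27.3 and 102 CPM in IQ3neg_1909B and IQ3neg_1910B, where Pgc stood at 27033 and 49153.

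Ctse, the intracellular relative, ran the other way. It was measured at 1718 CPM in IQ3pos_1909A and 4094 in IQ3pos_1910A, against 196 in IQ3neg_1909B and 453 in IQ3neg_1910B. Within either fraction the library of 4 mice was higher, and the lowest IQ3pos value was still above the highest IQ3neg value. The log2 difference was 3.15 (SE 0.57, limma adjusted p = 0.0666), 2.38 on TMM-scaled CPM (SE 0.47, limma adjusted p = 0.135) and 2.43 in edgeR (adjusted p = 0.0740). None of these passed; 228 of the 13019 tested genes had a larger positive difference on CPM. Ctse did pass in DESeq2 (2.43) and in limma with a pseudocount of 10 (3.11) or over genes averaging 10 CPM or more (3.15). These settings called many genes higher: 710 of 13019 in DESeq2, 380 of 13019 with the pseudocount and 999 of 6866 with the filter.

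Markers of the cell types known to make cathepsin E stood as follows. Of 6 surface pit cell markers, 5 (Gkn1, Gkn2, Tff1, Muc5ac and Sult1c2) were higher in both IQ3pos libraries and Psca was lower in both. Among all tested genes 40.9% were higher and 14.2% lower in both. The summed level of the 6 markers was 13919 and 13786 CPM in IQ3pos against 8396 and 10043 in IQ3neg. Psca alone made up 7108 and 8306 CPM of the IQ3neg sums and 2479 and 2360 of those in IQ3pos. Gkn1, a surface mucous cell gastrokine, was 8.92-fold higher in IQ3pos within the 3-mouse libraries and 7.10-fold within the 4-mouse libraries, where Ctse was 8.78-fold and 9.04-fold higher. A fold of this size was not particular to pit cell markers. Tff2, the neck cell marker, was 10.2-fold and 9.22-fold higher, and Psca stood at 0.349-fold and 0.284-fold. The summed level of 6 leukocyte markers was 267 CPM in IQ3pos_1909A and 49.1 in IQ3pos_1910A, against 372 in IQ3neg_1909B and 72.7 in IQ3neg_1910B. The leukocyte sum was thus lower in IQ3pos within each number, as were Lyz2, Ptprc and Itgam, and lower in the libraries of 4 mice. Lyz2 held most of it, at 211 and 43.9 CPM in IQ3pos_1909A and IQ3pos_1910A against 298 and 53.2 in IQ3neg_1909B and IQ3neg_1910B. Cd68 was higher in IQ3pos within each number, at 33.3 and 5.13 CPM against 30.5 and 3.71. Cd3e was also higher within each number, and Cd79a went opposite ways, both at low levels. Cd3e, a T cell gene, stood at most at 0.0551 CPM. The part of these cell types in the Ctse level was not tested.

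The share of the IQ3neg level that was left in IQ3pos was taken within each number, 1 pair being the 3-mouse and the other the 4-mouse libraries. Pgc kept 31.5% in the 3-mouse libraries and 14.4% in the 4-mouse libraries, Cblif kept 20.4% and 5.52%, and Chia1 kept 20.3% and 3.98%. The 95% exact binomial intervals, which cover counting error only, were narrow: 31.4% to 31.5% and 14.4% to 14.4% for Pgc, 20.3% to 20.5% and 5.50% to 5.55% for Cblif, and 20.2% to 20.3% and 3.96% to 3.99% for Chia1. All 3 genes kept less in the 4-mouse libraries than in the 3-mouse libraries, by more than counting error, and in both numbers Pgc kept the most. With 1 library of each fraction in a number there is no replicate check on a single share, and as mean ± SD over the 2 numbers the shares were 22.9% ± 12.1 for Pgc, 13.0% ± 10.5 for Cblif and 12.1% ± 11.5 for Chia1. These 3 means differed by less than their spread.

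TMM scaling lowered these shares without changing that order. Pgc then kept 17.2% in the 3-mouse libraries and 9.10% in the 4-mouse libraries, Cblif 11.1% and 3.49%, and Chia1 11.1% and 2.51%. Pga5 stood in IQ3pos at 249.2% of its IQ3neg level in the 3-mouse libraries and at 93.4% in the 4-mouse libraries, or 136% and 59.1% with TMM scaling, so the numbers went opposite ways on either scale. Ctse stood at 878% and 904%, or 479% and 572% with TMM scaling. On CPM its shares lay close together for their size, with a mean of 891% ± 17.9 (SD, n = 2).

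**Figure D2:**
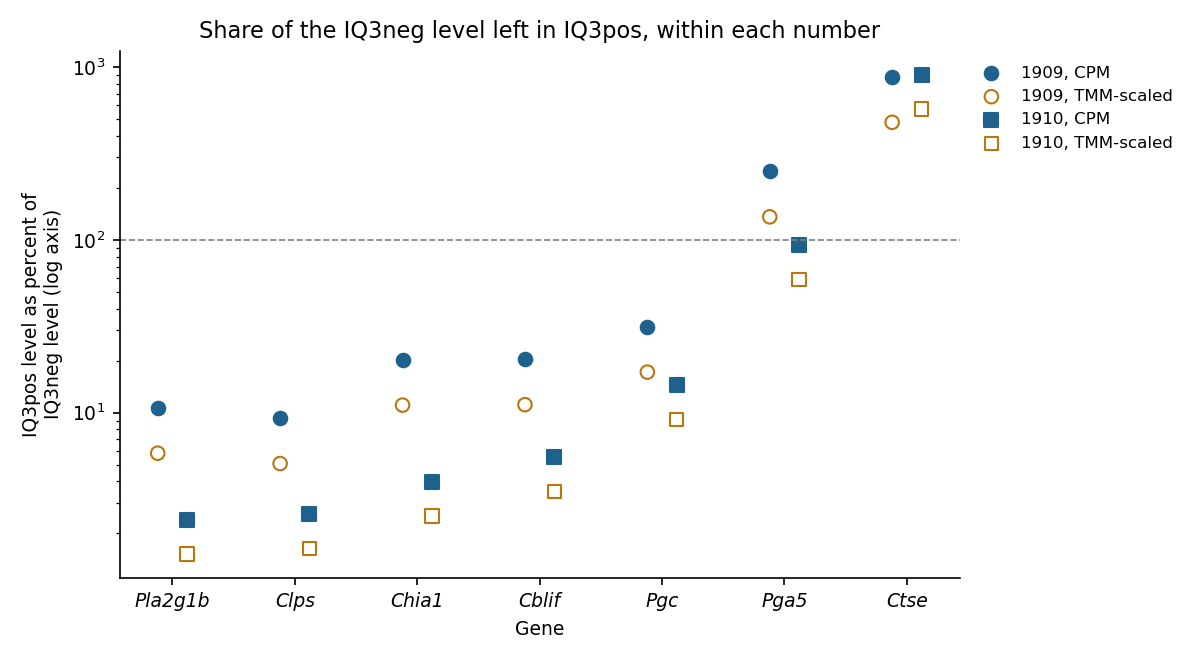
IQ3pos level as a percent of the IQ3neg level (log axis) within the 3-mouse (circles) and 4-mouse libraries (squares), on CPM (filled) and TMM-scaled CPM (open), for the 5 genes and the lipase-related genes Clps and Pla2g1b, with a dashed line at 100%. Pgc, Cblif and Chia1 lie between Clps and Pga5, all lower in the 4-mouse libraries, and Ctse lies at 878% and 904% on CPM.

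Clps (colipase) and Pla2g1b (a secreted phospholipase), the most abundant genes of the lipase list, were listed as chief cell markers and gave a reference point. Whether their reads came from the same cells as those of Pgc, Cblif and Chia1 was not tested. Clps kept 9.30% of its IQ3neg level in the 3-mouse libraries and 2.58% in the 4-mouse libraries, and Pla2g1b kept 10.7% and 2.41%. Both shares were below those of Pgc, Cblif and Chia1 in each number.

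A ratio within a library is free of library scaling, so each gene was also counted per 100 Pgc reads. Chia1 gave 47.3 and 17.7 reads per 100 Pgc reads in IQ3pos_1909A and IQ3pos_1910A, against 73.5 and 64.2 in IQ3neg_1909B and IQ3neg_1910B. Cblif gave 14.7 and 8.01 against 22.7 and 20.9 in the same order. Relative to Pgc, both were lower in both IQ3pos libraries, with log2 differences of −1.25 (Chia1) and −1.003 (Cblif).

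Pga5 and Ctse stood higher against Pgc. Most genes did, since 12271 of the 13019 tested genes (94.3%) had a log2 difference above that of Pgc. Pga5 gave 0.930 and 1.57 reads per 100 Pgc reads in IQ3pos_1909A and IQ3pos_1910A, against 0.117 and 0.242 in IQ3neg_1909B and IQ3neg_1910B, a log2 difference of 2.84. Ctse gave 14.6 and 41.7 reads against 0.521 and 0.664, a log2 difference of 5.39. Clps and Pla2g1b lay lower against Pgc, with log2 differences of −2.12 and −2.07: Clps gave 269 and 72.8 reads per 100 Pgc reads in IQ3pos and 909 and 406 in IQ3neg. None of the 6 ratios overlapped between the fractions. The share of all tested genes whose ratio to Pgc does not overlap was not counted, so the 6 have no background to stand beside. Each of the 6 gave p = 0.333 in a two-sided exact permutation test (0.333 after Benjamini-Hochberg adjustment over the 6). This is the smallest p that 2 libraries against 2 can give.

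**Figure D3:**
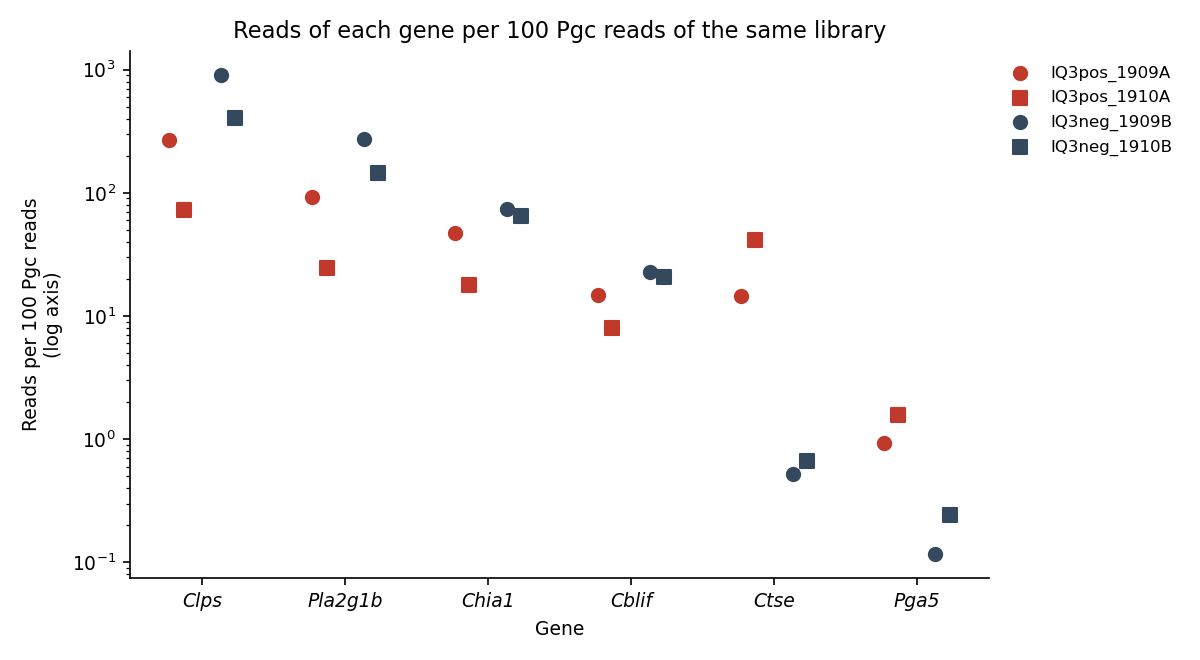
Reads of each gene per 100 Pgc reads of the same library (log axis), red for IQ3pos and dark blue for IQ3neg, circles for the 3-mouse and squares for the 4-mouse libraries. Clps, Pla2g1b, Chia1 and Cblif are lower in both IQ3pos libraries and Ctse and Pga5 higher, with no overlap for any of the 6 genes.

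Levels were then ordered per kb of annotated exon. In both IQ3neg libraries the order was Pgc, Chia1, Cblif, Ctse and Pga5, with means of 38093 ± 15641, 18757 ± 6039, 7397 ± 2638, 102 ± 57.4 and 64.8 ± 53.1 CPM per kb (SD, n = 2 each). Ctse stood above Pga5 in each IQ3neg library, at 61.7 against 27.3 and 143 against 102 CPM per kb. The ranges of Ctse and Pga5 overlapped, while those of the first 3 did not. In IQ3pos, Pgc led at 7789 ± 1015 CPM per kb and Pga5 came last at 81.8 ± 19.6. Between them came Chia1 (1926 ± 1429), Ctse (917 ± 530) and Cblif (820 ± 435), whose ranges overlapped. Within each IQ3pos library Chia1 stood above Cblif, at 2936 against 1128 and 915 against 512. Ctse passed Chia1 and Cblif in IQ3pos_1910A only. Of the reads of the 5 genes together, Ctse took 8.20% and 24.7% in IQ3pos_1909A and IQ3pos_1910A and 0.265% and 0.357% in IQ3neg_1909B and IQ3neg_1910B, while Pgc took 50.8% to 59.2% in every library.

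The families and pathways around the 5 genes were read from lists chosen with earlier results of these data known. Of 9 aspartic protease genes, 7 were tested; Pgc and Bace1 stood lower in both IQ3pos libraries and Ctse, Ctsd and Bace2 higher, though Ctsd overlapped on TMM-scaled CPM, and Pgc was the member called by limma on TMM-scaled CPM and by edgeR. Lower and higher were thus 2 and 3 of 7 on CPM, beside 14.2% and 40.9% of all tested genes. On TMM-scaled CPM they were 2 and 2 of 7, beside 23% and 24.7%. The list's median log2 difference was 0.60, beside 0.68 for all tested genes, and 0.23 beside 0.04 on TMM-scaled CPM. Bace2, a membrane-bound relative, stood at 119 and 240 CPM in IQ3pos against 25.7 and 67.1 in IQ3neg, with edgeR's adjusted p at 0.292.

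Of 10 genes of the chitinase family (glycoside hydrolase family 18), 7 were tested, and Chia1 was the member called by edgeR. Chia1 and Chil1 stood lower in both IQ3pos libraries and 0 members stood higher in both. These 2 and 0 of 7 stand beside 14.2% and 40.9% of all tested genes. The median log2 difference was −0.36, beside 0.68 for all tested genes. On TMM-scaled CPM, Chid1 joined the lower genes, 3 and 0 of 7 beside 23% and 24.7%, and the median was −1.12 beside 0.04. Chil4, a chitinase-like protein gene and the next most abundant, stood at 17.9 and 188 CPM in IQ3pos_1909A and IQ3pos_1910A against 5.21 and 23.8 in IQ3neg_1909B and IQ3neg_1910B. Its fractions overlapped, and it was higher in IQ3pos within each number, unlike Chia1.

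Of 17 listed genes of cobalamin uptake and use, 14 were tested. Cblif was lower in both IQ3pos libraries, and 7 genes (Cd320, Lmbrd1, Mmachc, Mmadhc, Mmaa, Mtr and Mtrr) were higher in both, of which 4 (Cd320, Mmaa, Mtr and Mtrr) stayed so on TMM-scaled CPM, where Mmut joined Cblif on the lower side. The 7 and 4 of 14 stand beside the 40.9% and 24.7% of all tested genes that were higher on these scales. The median log2 difference was 0.95 on CPM, beside 0.68 for all tested genes, and 0.37 beside 0.04 on TMM-scaled CPM, and Cblif alone was called, by edgeR and by limma on TMM-scaled CPM. Mmadhc, which handles cobalamin inside cells, stood at 121 and 118 CPM in IQ3pos against 77.2 and 53.4 in IQ3neg. Cubn and Amn, the intestinal receptor for intrinsic factor, stood at most at 0.774 and 0.113 CPM.

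Of 15 genes of the zymogen granule and of chief cell maturation, 12 were tested, and their sides depended on the scaling. On CPM, Bhlha15, Rab26, Vamp2 and Gp2 stood lower in both IQ3pos libraries and Rab27b, Vamp8, Agr2 and Creb3l4 higher in both, 4 of 12 each way beside 14.2% and 40.9% of all tested genes, with a median of −0.11 beside 0.68. On TMM-scaled CPM, Xbp1 and Rab3d joined the lower genes and of the higher ones Rab27b and Agr2 stayed, 6 and 2 of 12 beside 23% and 24.7%, with a median of −0.72 beside 0.04. None passed in limma on either scale or in edgeR. Bhlha15, the transcription factor MIST1 of mature chief cells, stood at 0.0882 and 0.0215 CPM in IQ3pos and 3.48 and 5.15 in IQ3neg. Rab26, a granule GTPase gene, stood at 0.0441 and 0.0179 CPM against 10.9 and 6.24. Agr2 and Xbp1, the most abundant of the list, serve protein folding and the secretory apparatus: Agr2 stood at 5382 and 6874 CPM in IQ3pos against 1133 and 2024, and Xbp1 at 502 and 488 against 448 and 721.

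Of 7 receptor genes for signals that can drive secretion, 6 were tested, with a median of −0.65 beside 0.68 for all tested genes, and −1.10 beside 0.04 on TMM-scaled CPM. Chrm1 and Gpr39 stood higher in both IQ3pos libraries on CPM, and on TMM-scaled CPM Gpr39 stood lower in both. The lower and higher receptors were thus 2 and 2 of 6 on CPM, beside 14.2% and 40.9% of all tested genes, and 3 and 1 of 6 on TMM-scaled CPM, beside 23% and 24.7%. Cckar and Cckbr, which encode receptors for cholecystokinin and gastrin, were lower in both IQ3pos libraries and passed in edgeR (adjusted p = 0.0252 and 0.0435), but not in limma on CPM or TMM-scaled CPM. Cckar stood at 31.9 and 28.1 CPM in IQ3pos against 115 and 193 in IQ3neg, and Cckbr at 4.43 and 6.08 against 32.5 and 95.4. For comparison, the 5 tested of 7 lipase and colipase genes were all lower in both IQ3pos libraries, on CPM and on TMM-scaled CPM. These stand beside 14.2% and 23% of all tested genes. The list's median was −4.35 on CPM, beside 0.68, and −5.12 on TMM-scaled CPM, beside 0.04. Of 15 listed serine protease and carboxypeptidase zymogens, 7 were tested, with 5 lower and Cela1 higher in both on either scale. All tested genes were 14.2% lower and 40.9% higher on CPM, and 23% and 24.7% on TMM-scaled CPM. The zymogen medians were −2.46 and −2.84 on these scales. Try4 and Try10 stood at 348 and 190 CPM in IQ3neg_1909B and 301 and 189 in IQ3neg_1910B. In IQ3pos they stood at 21.2 and 8.12 CPM in IQ3pos_1909A and 8.72 and 11.96 in IQ3pos_1910A. EdgeR called 4 of the 5 lipase genes (Clps, Pnliprp1, Pla2g1b and Cel) and 2 of the 7 zymogens (Try4 and Try10) lower. These stand beside 80 of all 13019 tested genes (0.614%), and near-identical trypsinogen copies may share reads.

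**Figure D4:**
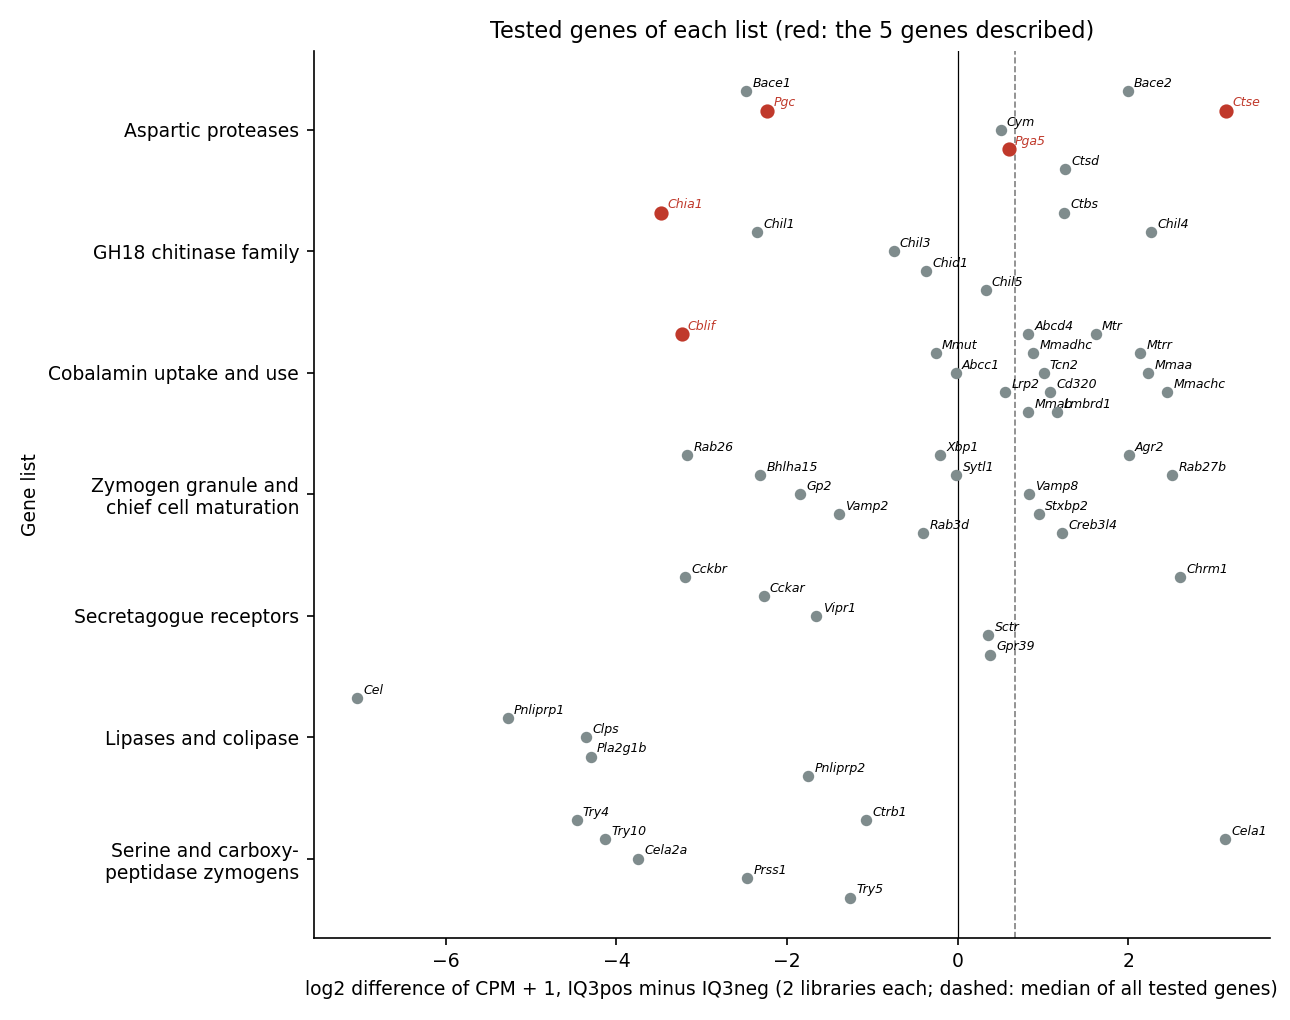
Log2 difference of CPM + 1 (IQ3pos minus IQ3neg, 2 libraries each) for each tested gene of 7 lists, with the 5 described genes in red, a solid line at 0 and a dashed line at the median of all tested genes (0.68). The aspartic proteases spread from Bace1 and Pgc on the left to Ctse on the right, while the lipase list lies wholly to the left of 0.

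The genes of most like pattern were found by the distance between log2(CPM + 1) profiles over the 4 libraries, each centred on its own mean, among 6564 genes averaging 10 CPM or more. With 4 points that share 2 fractions, likeness is a description of these libraries. Closest to Pgc was Cckar (distance 0.11), the cholecystokinin receptor gene already described, then Nebl (0.36) and Syt7 (0.37), which encodes a calcium sensor of vesicle fusion. Cblif had Chia1 as its nearest gene (0.46), then Trp53inp1 (0.50) and Bex2 (0.53), and Chia1 had Trp53inp1 (0.37), Cblif (0.46) and Bex2 (0.73). Pgc came at rank 20 for Cblif and rank 44 for Chia1.

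Pga5 lay nearest to Mocs2 (0.11), Pstpip2 (0.16) and Tssc4 (0.17), of which Mocs2, a molybdenum cofactor gene, stood at 44.8 and 61.0 CPM in IQ3pos and 18.6 and 64.6 in IQ3neg. For Pga5, Pgc came at rank 5790 of 6564. Ctse lay nearest to Nemp1 (0.15), Gas2l3 (0.17) and Ccdc34 (0.22). Gas2l3, which encodes a cytoskeletal linker of dividing cells, stood at 65.5 and 144 CPM in IQ3pos_1909A and IQ3pos_1910A, against 6.78 and 18.1 in IQ3neg_1909B and IQ3neg_1910B. Like Ctse, it was higher in IQ3pos and, within each fraction, higher in the library of 4 mice.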

How the data were processed

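RNA from 4 pools of sorted cells was sequenced. The authors deposited CPM per gene symbol, and per the submitters' processing notes the build was GRCm38/mm10 and the tools were edgeR, STAR 2.7.1a and featureCounts (Subread 2.0.0). Which annotation was used, whether strand was used and how multi-mapped reads were treated is not given in the sources. Each column sums to 1000000. Whole reads were recovered: 100% of values above 0 lay within 0.05 of a whole multiple of 1 read per library (0.00239 to 0.0110 CPM). PCR reads carry no molecular identifiers, so intervals cover counting error only.

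IQ3pos was compared with IQ3neg on log2(CPM + 1) by limma-trend (R 4.3.3, limma 3.58.1), two-sided, over 13019 genes whose mean reached 1 CPM, with Benjamini-Hochberg adjustment over all of them at 0.05 and 2 residual degrees of freedom. Fold changes on this scale understate those of low genes. TMM factors came from the tested genes. Count tests used edgeR 4.0.16 (legacy=FALSE) and DESeq2 1.42.0 on the recovered reads of the same genes. Limma-trend and edgeR were checked on simulated counts with known changes, and DESeq2 was not. Exon lengths are unions of GENCODE vM21 exons, where Cblif was matched as Gif through RefSeq synonyms; sequences were aligned with Biopython 1.88.

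The genes and lists were chosen with earlier results of these data known. Named genes are the 5 described, Iqgap3, Clps, those of each list past the threshold or else its 2 most abundant, and the 3 of most like pattern to each gene; others were chosen after their values were seen.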

Additional observations from a re-analysis of the deposited data

How the results depend on the processing

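The signs of Pgc, Cblif, Chia1 and Ctse held under every setting run, while sizes and calls moved. Pgc passed with a filter at 10 CPM (−2.23), TMM-scaled CPM (−3.00), DESeq2-scaled CPM (−3.04), library totals without the 20 most abundant genes (−3.22), edgeR (−3.01) and DESeq2 (−3.00). Cblif passed with a pseudocount of 10 (−3.22), the 10 CPM filter (−3.23), TMM (−4.002), DESeq2 scaling (−4.04), edgeR (−3.89) and DESeq2 (−3.86). Chia1 passed with a pseudocount of 10 (−3.47), the filter (−3.48), edgeR (−3.997) and DESeq2 (−3.96), and Ctse with a pseudocount of 10 (3.11), the filter (3.15) and DESeq2 (2.43). Pga5 turned negative with TMM (−0.16), DESeq2 scaling (−0.19), totals without the 20 genes (−0.38), edgeR (−0.38), DESeq2 (−0.33) and without IQ3neg_1909B (−0.34), and passed nowhere. The Ctse share became 525%, 514% and 449% under the 3 scalings.

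Without any 1 library, 0 genes of the 7 lists passed (0 to 0 in either direction), and differences ranged from −2.66 to −1.80 for Pgc, −3.80 to −2.67 for Cblif, −4.32 to −2.64 for Chia1, −0.34 to 1.54 for Pga5 and 2.52 to 3.78 for Ctse; the lone library of a fraction is then assumed to vary like the other pair. Listed genes called lower numbered 0 in the test reported and 9 (pseudocount 10), 11 (filter), 4 (TMM), 5 (DESeq2 scaling), 2 (without the 20 genes), 11 (edgeR) and 19 (DESeq2); those called higher were 0, 2 with a pseudocount of 10, 3 with the filter and 3 in DESeq2. Of the listed genes, 58 were among the 13019 tested. Over all genes, those called lower were 0, 67 (pseudocount 10), 87 of 6866 (filter), 24 (TMM) and 34 (DESeq2 scaling). They were 13 without the 20 genes, 80 in edgeR and 1081 in DESeq2. In the same order, those called higher were 0, 380, 999 of 6866, 6, 7, 1, 40 and 710.

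The labels give libraries a shared number and pool size but do not say that they share mice. Same-numbered deviations correlated at r = 0.148 over 13019 genes, and with 2 pairs the number was not taken as a pairing. With a replicate block for it, calls over all genes went from 0 to 125 lower and 1216 higher, listed genes to 11 lower and 5 higher, and Pgc (−2.23), Cblif (−3.23), Chia1 (−3.48) and Ctse (3.15) passed. The cause of these moves was not tested.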
